A study of Carassius auratus with 6 samples.

Results

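The genes described here form the MYC, MAX and MXD network, measured in the liver of crucian carp (Carassius auratus). They were taken as every row of the expression table whose gene name is mxi1, mxd1, mxd3, mxd4, mnt, max, myc, mlx, mlxip or mlxipl, ignoring case, with or without a copy suffix such as a or b. That rule found 32 gene copies of 10 genes, out of 47544 genes in the table. Liver RNA was sequenced in 3 control libraries and in 3 libraries taken after 12 h of hypoxia stress, and all 6 are labelled as wild-type liver. The sources used here state no age, sex or oxygen level. The labels do not say whether each library is a separate fish, so p-values measure the spread between these libraries, which may be technical. The comparison asks how liver transcripts differ when the fish is short of oxygen.

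MYC is a transcription factor that drives cell growth, ribosome production and cell division, and it binds DNA when paired with MAX. MNT, MXI1 and the MXD proteins compete with MYC for MAX, bind the same kind of DNA site and recruit the SIN3 corepressor with its histone deacetylases, so they oppose MYC. MLX is a MAX-like protein whose partners MondoA (encoded by mlxip) and ChREBP (encoded by mlxipl) respond to glucose metabolites, and ChREBP is known in mammalian liver for switching on genes of sugar use and fat synthesis. In mammalian cells MXI1 is a known target of hypoxia-inducible factor (HIF). Most of these genes are present in several copies, each given here by the name in the table and its gene identifier.

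Levels are normalized counts, that is, reads scaled by one size factor for each library and not by gene length, so a level compares libraries for the same copy and not copies with each other. Differences are hypoxia minus control on the scale log2(normalized count + 1), ± standard error (SE), which understates the change of low genes. A gene is said to have risen or fallen where limma's moderated test gave a Benjamini-Hochberg adjusted p under 0.05 over all 41045 genes tested. Recovered reads per library lay between 15734847 and 22782649. The sources used here do not say how reads that match several near-identical copies were counted, so the split of reads between alike copies is uncertain. In bulk liver, fewer cells of a type and less RNA per cell cannot be told apart.

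After 12 h of hypoxia, transcripts of some copies of MYC and of its antagonists MNT and MXI1 were higher, whereas those of their shared partner MAX were not called. Of the 32 copies 8 rose and 0 fell: 5 of 8 copies of myc, 2 of 4 of mnt and 1 of 2 of mxi1. The mnt and mxi1 calls held whichever single library was left out, and the myc calls did not. All 32 passed the filter on low values. Over all genes tested, 1.83% rose and 0.417% fell. The copies of max, mxd1, mxd3, mxd4, mlx, mlxip and mlxipl had 0 called. The median difference was 0.23 over the 32 copies and 0.00 over all genes tested. In 10 copies every hypoxia library was above every control library and in 2 every one was below, where 12.4% and 12.2% of all tested genes had such groups, 24.6% in all. By edgeR 7 of the copies rose and 0 fell, where 1.51% of genes rose and 1.92% were called. By DESeq2 8 rose and 1 fell, where 4.95% of genes rose and 8.09% were called. The authors' deposited table gives 8 copies as higher and 1 as lower at an adjusted p under 0.05, where 3.43% of genes are higher and 5.49% pass in either direction. Its log2 fold changes nearly equal those of DESeq2 here, at 3.01 in each for mycb 113045698. Both rest on the same reads, so they are not separate support.

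**Figure D1:**
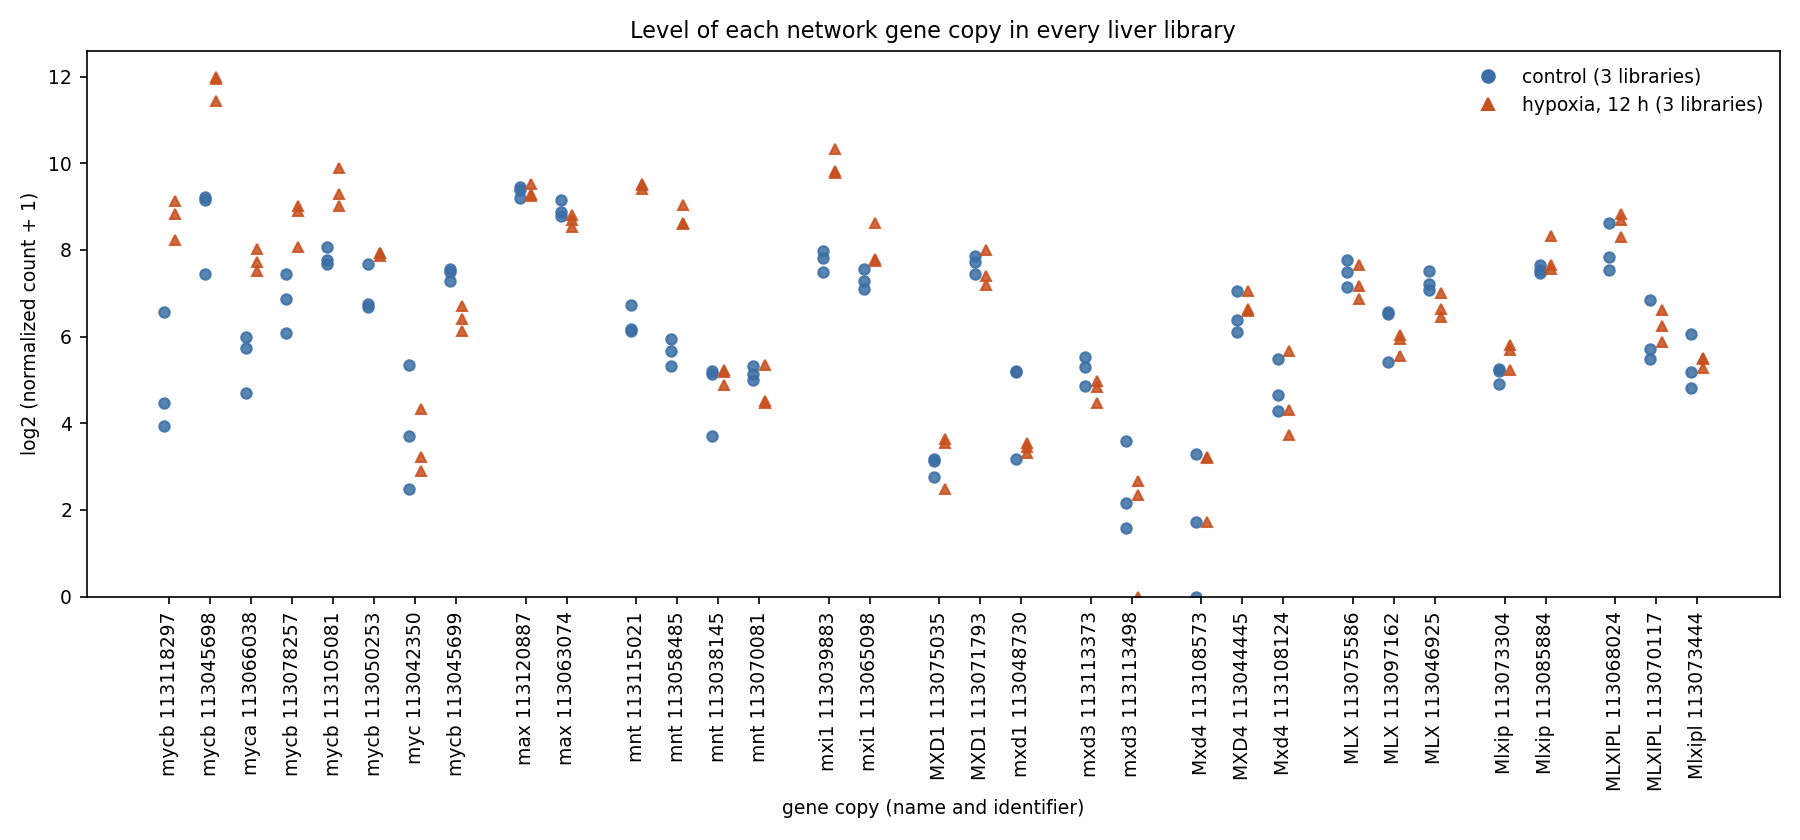
Level of each of the 32 gene copies, as log2(normalized count + 1), in the 3 control and the 3 hypoxia libraries, with copies grouped by gene. The 8 copies that rose have every hypoxia library above every control library, and the groups of both max copies overlap.

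MYC was represented by 8 copies, named myc, myca or mycb. The copy with the most reads, mycb 113045698, was at 174, 569 and 593 in control replicates 1 to 3 and at 4089, 2761 and 3937 in hypoxia replicates 1 to 3. Control replicate 1 was the low control, and the groups did not overlap. The mean went from 445 ± 235 to 3596 ± 727 (SD, n = 3), 8.08-fold, with a log2 difference of 3.19 ± 0.45 (limma adjusted p = 0.00887).

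Copy mycb 113118297 was at 14.3, 93.6 and 21.0 in controls and at 561, 300 and 457 after hypoxia, a difference of 3.75 ± 0.61 (limma adjusted p = 0.0168). Control replicate 2 was the high control and still lay below the lowest hypoxia library. Copy myca 113066038 was at 52.8, 62.4 and 25.0 in controls and at 209, 258 and 182 after hypoxia (2.27 ± 0.37, limma adjusted p = 0.0175). Copy mycb 113105081 was at 203, 266 and 218 in controls and at 520, 630 and 942 after hypoxia (1.57 ± 0.27, limma adjusted p = 0.0237). In both, the groups were apart. Copy mycb 113078257 was at 67.0, 173 and 115 in controls and at 517, 268 and 474 after hypoxia (1.86 ± 0.39, limma adjusted p = 0.0476), again without overlap. This copy was not called by edgeR (adjusted p = 0.0654) or by limma among genes with a mean of at least 10 (adjusted p = 0.0518).

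These 5 calls depended on the libraries. With 1 library left out at a time, mycb 113045698 was called in 2 of 6 fits and each of the other risen copies in 1. The highest adjusted p by limma was 0.0782 for mycb 113045698, 0.153 for mycb 113118297, 0.114 for myca 113066038, 0.145 for mycb 113105081 and 0.213 for mycb 113078257. All 5 were called without control replicate 2, a fit in which the count of risen genes over the whole table went from 750 to 1314. Over these fits the differences of the 5 copies stayed between 1.33 and 4.54.

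The remaining 3 copies did not pass the test. Copy mycb 113050253 was at 107, 203 and 101 in controls and at 242, 245 and 230 after hypoxia, every hypoxia library being above the controls (0.87 ± 0.31, limma adjusted p = 0.184, and 0.0311 without control replicate 2). Copy myc 113042350 had few reads, at 39.6, 4.62 and 12 in controls and at 8.27, 19.1 and 6.51 after hypoxia (-0.36 ± 0.78), and its groups overlapped. Copy mycb 113045699 was at 155, 180 and 187 in controls and at 83.9, 68.8 and 103 after hypoxia. Here every hypoxia library was below every control (-1.04 ± 0.27, limma adjusted p = 0.0907). In the authors' deposited table mycb 113045699 has a log2 fold change of -1.03 and an adjusted p of 0.0327.

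Whether copies of a gene responded unequally was tested with limma on the log2 difference between 2 copies within each library, fitted over 43974 pairs of copies, of which 0.905% were called. Of the 28 pairs of myc copies 6 were called. Copies mycb 113045698 and mycb 113045699, which are adjacent genes in the goldfish reference assembly ASM336829v1, differed in response by 4.22 ± 0.42 (95% interval 3.27 to 5.17, limma adjusted p = 0.00449). That call held whichever single library was left out, at an adjusted p of at most 0.0399.

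Copy mycb 113045699 also differed from each of the other 4 risen copies. Its difference minus theirs was -2.60 ± 0.30 for mycb 113105081, -4.78 ± 0.62 for mycb 113118297, -2.90 ± 0.38 for mycb 113078257 and -3.31 ± 0.48 for myca 113066038. The adjusted p by limma was 0.00898, 0.0135, 0.014 and 0.0206 in that order. With 1 library left out, the call against mycb 113105081 was kept in 5 of 6 fits and each of the other 3 in 1 of 6. The sixth call set mycb 113050253 against mycb 113118297 (-2.88 ± 0.49, limma adjusted p = 0.0385) and was kept in 1 of 6 such fits. Copies mycb 113050253 and mycb 113105081 share 10 names among the named genes within 10 positions on either side, of 16 and 14. Neither shares a name with any other myc copy placed on a chromosome. The responses of mycb 113050253 and mycb 113105081 differed by -0.69 ± 0.35 (95% interval -1.48 to 0.10, limma adjusted p = 0.386).

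**Figure D2:**
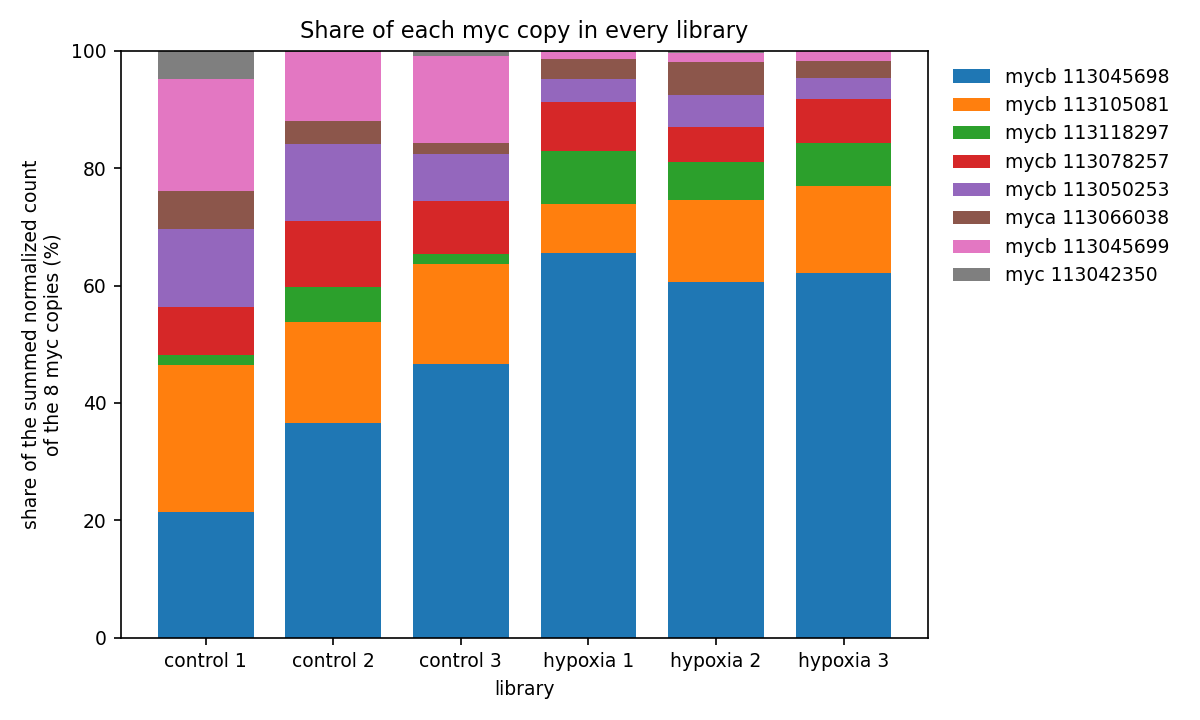
Share of the summed normalized count of the 8 myc copies that each copy took, in percent, in each of the 6 libraries; shares are of reads and not corrected for gene length. Copy mycb 113045698 took 21.4% to 46.6% in controls and 60.7% to 65.6% after hypoxia, and its neighbour mycb 113045699 took 11.6% to 19.1% and 1.35% to 1.63%.

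Summed over the 8 copies, myc was at 812, 1552 and 1272 in controls and at 6231, 4549 and 6333 after hypoxia, a 4.71-fold ratio of means. The make-up of that sum was not the same in both groups. The share of mycb 113045698 averaged 34.9% in controls and 62.8% after hypoxia. That of mycb 113045699 averaged 15.1% and 1.5%.

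MAX, the partner that MYC, MNT, MXI1 and the MXD proteins share, was not called in either copy. Copy max 113120887 was at 668, 697 and 588 in controls and at 732, 605 and 621 after hypoxia (0.00 ± 0.22, 95% interval -0.49 to 0.49). Copy max 113063074 was at 568, 439 and 465 in controls and at 447, 415 and 368 after hypoxia (-0.26 ± 0.22, 95% interval -0.76 to 0.25). The groups overlapped in both. Together the copies were at 1142 ± 91.8 in controls and 1063 ± 102 after hypoxia (SD, n = 3).

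**Figure D3:**
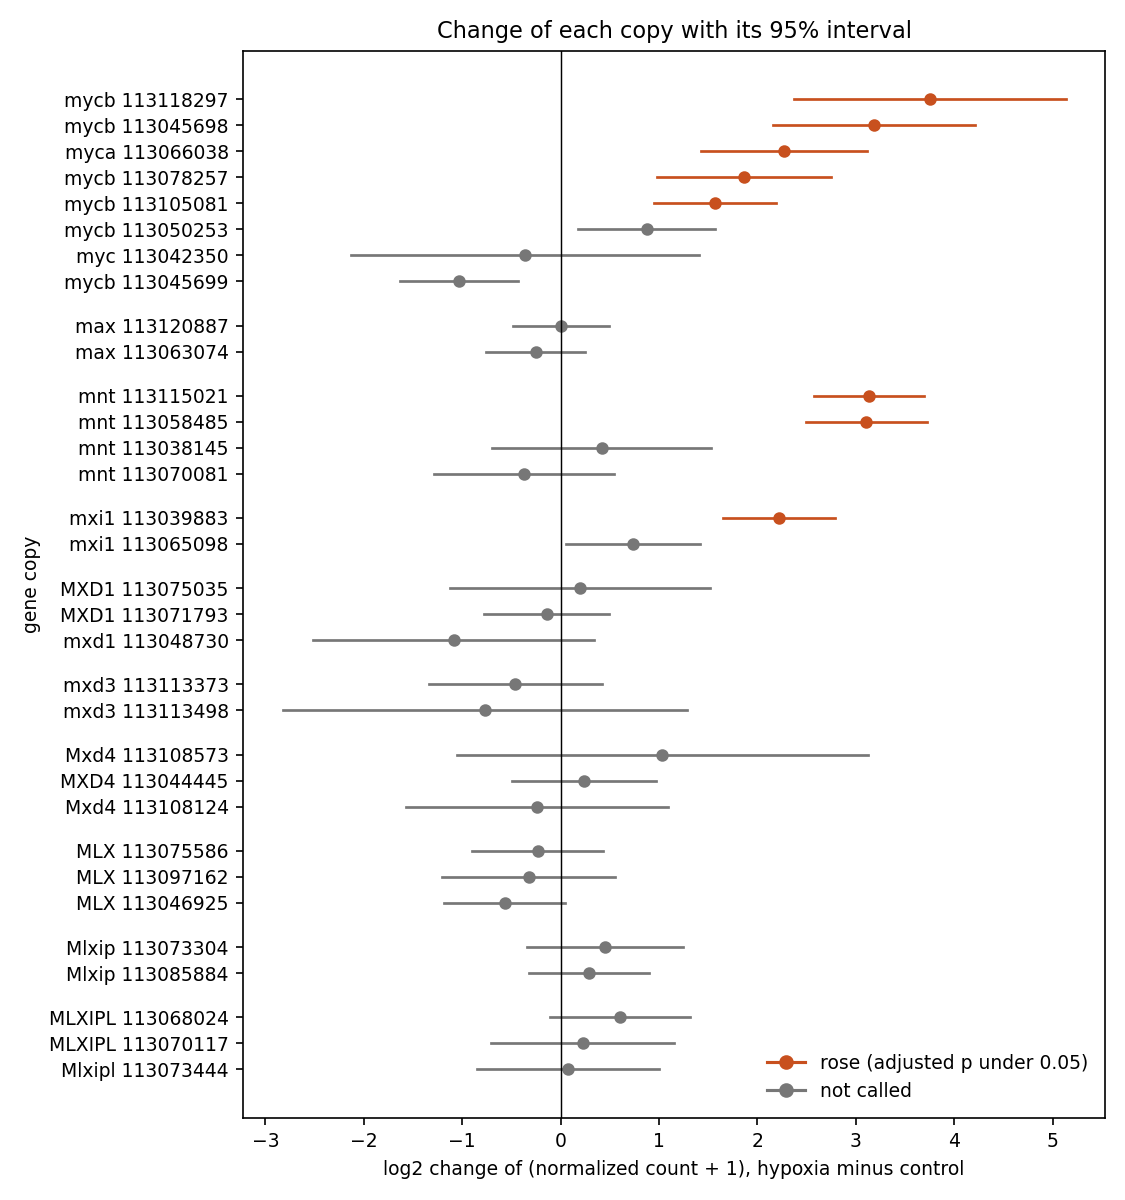
Difference between hypoxia and control for each of the 32 copies, on the scale log2(normalized count + 1), with its 95% interval from limma; the 8 copies that rose are coloured. The intervals of mnt 113115021 and mnt 113058485 start at 2.57 and 2.49, and those of both max copies include 0.

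MNT, a MAX partner that in mammals is found in most tissues, gave the smallest p of the network. Copy mnt 113115021 was at 104, 69.4 and 71.1 in controls and at 736, 719 and 675 after hypoxia. The groups were far apart and the hypoxia libraries lay close together. Its mean went from 81.6 ± 19.8 to 710 ± 31.3 (SD, n = 3), 8.70-fold, with a difference of 3.13 ± 0.25 (limma adjusted p = 0.000416).

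Copy mnt 113058485 was at 60.4, 39.3 and 50.0 in controls and at 389, 524 and 391 after hypoxia. Its difference was 3.10 ± 0.27 (limma adjusted p = 0.000758), also 8.70-fold between means. Both copies were called in every fit that left out 1 library, with adjusted p up to 0.0112 and 0.0166.

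The other mnt copies were not called and their groups overlapped. Copy mnt 113070081 was at 34.1, 39.3 and 31.0 in controls and at 21.3, 39.8 and 22 after hypoxia (-0.37 ± 0.41, 95% interval -1.29 to 0.55). Copy mnt 113038145 was at 34.1, 35.8 and 12 in controls and at 35.4, 28.3 and 36.6 after hypoxia (0.42 ± 0.49, 95% interval -0.69 to 1.53).

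Of the 6 pairs of mnt copies 3 were called unequal. Copy mnt 113070081 differed from mnt 113115021 by -3.50 ± 0.42 and mnt 113058485 from mnt 113070081 by 3.48 ± 0.41 (limma adjusted p = 0.00986 for each, kept in 4 of 6 fits with 1 library left out). Copy mnt 113038145 differed from mnt 113115021 by -2.71 ± 0.46 (limma adjusted p = 0.0401, kept in 2 of 6 such fits). Its pair with mnt 113058485 was not called (-2.68 ± 0.55, limma adjusted p = 0.0728). The 2 risen copies differed from each other by -0.03 ± 0.29, with a 95% interval from -0.70 to 0.64.

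These 2 risen copies share their surroundings in the reference assembly. Of 17 named genes within 10 positions on either side of each, 15 names were shared, whereas mnt 113038145, with 12 named neighbours, shared 2 names with each of them. Copy mnt 113070081 is not placed on a chromosome there. One shared name is hif1a, which encodes the oxygen-regulated subunit of HIF. HIF1A 113115010, 10 genes from mnt 113115021, was at 342, 280 and 252 in controls and at 708, 1327 and 1069 after hypoxia, and rose by 1.79 ± 0.28 (limma adjusted p = 0.0142, up to 0.119 with 1 library left out). Hif1a 113058496, 10 genes from mnt 113058485, was at 879, 770 and 1002 in controls and at 1455, 2748 and 2248 after hypoxia. Its groups did not overlap, but limma did not call it (1.24 ± 0.29, limma adjusted p = 0.0664). DESeq2, which called 8.09% of all genes, called both HIF1A 113115010 and Hif1a 113058496 (DESeq2 adjusted p = 3.58e-06 and 0.00241). Its calls among the other neighbours were not counted. HIF1A 113115010 was 1 of 15 tested neighbours of mnt 113115021 and the one that limma called. Around mnt 113058485 limma called 0 of 16, where 2.24% of all genes were called. Called neighbours also lay beside copies that were not called, 2 of 18 around mxd3 113113373 and 2 of 15 around MXD1 113071793. Among them was dusp1-a 113113377, 5 genes from mxd3 113113373, which rose by 5.75 ± 0.45 (limma adjusted p = 0.000403). Around max 113120887 limma called 0 of 15.

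MXI1, which pairs with MAX and opposes MYC, rose in mxi1 113039883. That copy was at 251, 223 and 178 in controls and at 903, 1279 and 876 after hypoxia, with no overlap. Its mean went from 217 ± 36.5 to 1019 ± 226 (SD, n = 3), 4.69-fold, with a difference of 2.22 ± 0.25 (limma adjusted p = 0.00292, up to 0.038 with 1 library left out).

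The second copy, mxi1 113065098, was at 188, 155 and 137 in controls and at 221, 393 and 214 after hypoxia. Its hypoxia libraries were all above its controls, but the difference of 0.74 ± 0.30 was not called (95% interval 0.06 to 1.41, limma adjusted p = 0.235). The response of mxi1 113039883 exceeded that of mxi1 113065098 by 1.48 ± 0.25 (limma adjusted p = 0.0401). That call was kept in 1 of 6 fits that left out a library, with adjusted p up to 0.184. The surroundings of these copies shared 3 names, of 11 and 14.

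The MXD genes, whose products pair with MAX, had 0 of 8 copies called. Their differences ranged from -1.09 to 1.03 with a lowest limma adjusted p of 0.39. By edgeR 0 and by DESeq2 0 were called, and 0 had an unadjusted p under 0.05. MXD1 113071793 was at 231, 210 and 172 in controls and at 253, 169 and 145 after hypoxia (-0.14 ± 0.28). Copy mxd1 113048730 was at 35.2, 8.09 and 36.0 in controls and at 10.6, 9.94 and 8.95 after hypoxia (-1.09 ± 0.63). In mxd1 113048730 control replicate 2 lay below the hypoxia libraries and the other controls above them.

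MXD4 113044445 was at 68.1, 132 and 83.1 in controls and at 99.2, 94.8 and 132 after hypoxia (0.24 ± 0.32). Mxd4 113108124 was at 44.0, 18.5 and 24.0 in controls and at 18.9, 49.7 and 12.2 after hypoxia (-0.24 ± 0.59). The groups overlapped in both. Copy mxd3 113113373 was at 45.1, 38.1 and 28.0 in controls and at 30.7, 27.5 and 21.2 after hypoxia (-0.46 ± 0.39). Copy mxd3 113113498 was at 11, 3.47 and 2.0 in controls and at 0, 5.35 and 4.07 after hypoxia (-0.77 ± 0.91). The groups overlapped here too, as they did in Mxd4 113108573 and in MXD1 113075035, which the reference lists as a pseudogene. For the 3 copies with a mean under 10 over the 6 libraries, 95% intervals were wide. They reached down to -2.83 for mxd3 113113498 and up to 3.12 for Mxd4 113108573, so large differences were not excluded.

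The glucose-sensing branch had 0 of 8 copies called as well, with differences from -0.57 to 0.60 and a lowest limma adjusted p of 0.302. By edgeR 0 and by DESeq2 0 were called, and 0 had an unadjusted p under 0.05. For MLX, the shared partner of this branch, MLX 113046925 was at 147, 134 and 183 in controls and at 99.2, 86.4 and 128 after hypoxia (-0.57 ± 0.27, 95% interval -1.19 to 0.05). Every hypoxia library of that copy was below its controls. MLX 113075586 was at 215, 140 and 179 in controls and at 143, 116 and 199 after hypoxia (-0.23 ± 0.29), and MLX 113097162 differed by -0.32 ± 0.39.

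MondoA was read from Mlxip 113085884, with 199, 184 and 177 for the controls and 187, 318 and 199 for hypoxia (0.29 ± 0.27). The second copy, Mlxip 113073304, was at 37.4, 28.9 and 36.0 in controls and at 36.6, 50.5 and 54.5 after hypoxia (0.45 ± 0.35). ChREBP was read from MLXIPL 113068024, with 186, 392 and 227 for the controls and 451, 314 and 410 for hypoxia (0.60 ± 0.31, 95% interval -0.11 to 1.31). Control replicate 2 was the high control there. MLXIPL 113070117 was at 51.7, 113 and 44.0 in controls and at 74.4, 57.3 and 96.8 after hypoxia (0.22 ± 0.41), and Mlxipl 113073444 differed by 0.07 ± 0.41. The groups of these Mlxip and Mlxipl copies overlapped.

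Genes around the network were described with 5 lists, beside the 2.24% of all tested genes that were called. Of 11 tested copies of other MYC and MAX family genes 1 rose and 0 fell, with a median difference of -0.11. It was mycl1b 113119573, a copy of L-MYC, a relative of MYC, at 14.3, 8.09 and 5.0 in controls and at 117, 60.4 and 58.6 after hypoxia (3.00 ± 0.50, limma adjusted p = 0.0192, up to 0.135 with 1 library left out). Its groups did not overlap.

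Of 74 tested genes for MYC cofactors and MYC protein stability 1 rose and 0 fell, with a median of -0.01. It was pim2 113107005, a kinase that in mammals phosphorylates and stabilizes MYC, at 222, 347 and 263 in controls and at 5313, 2229 and 5311 after hypoxia. The rise was 15.4-fold between means (3.86 ± 0.37, limma adjusted p = 0.00113), and the call held in each fit that left out 1 library, with adjusted p up to 0.0336.

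The SIN3 corepressor, through which the MAX-bound antagonists repress, had 40 tested genes with 0 called by limma, 0 by edgeR and 4 by DESeq2, which called 8.09% of all genes. At an unadjusted p under 0.05, 9 of the 40 were higher and 2 lower, where 10.2% of all tested genes were higher and 8.41% lower at that threshold. The median was 0.20. The smallest p belonged to ARID4A 113060369, listed as a pseudogene in the reference (1.44 ± 0.37, limma adjusted p = 0.0931). SIN3A 113066646, the scaffold of the complex, was at 45.1, 65.9 and 33.0 in controls and at 93.3, 136 and 103 after hypoxia (1.22 ± 0.35, limma adjusted p = 0.116). Its groups did not overlap. DESeq2 called ARID4A 113060369 and SIN3A 113066646 (DESeq2 adjusted p = 0.021 and 0.044).

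MYC growth targets, genes of ribosome production, nucleotide synthesis and cell cycle entry known from mammals, had 101 tested genes with 0 called by limma and 0 by edgeR. DESeq2 called 5 of them, where it called 8.09% of all genes in either direction and 4.95% as risen. At an unadjusted p under 0.05, 14 of the 101 were higher and 5 lower, beside 10.2% and 8.41% of all tested genes. The median was 0.20. The smallest p belonged to Nop56 113063632, at 32.0 ± 9.99 in controls and 85.9 ± 17.5 after hypoxia (SD, n = 3; 1.42 ± 0.36, limma adjusted p = 0.0847), and to NPM1 113075044, at 89.9 ± 32.6 and 201 ± 51.3 (1.18 ± 0.33, limma adjusted p = 0.114). Both belong to nucleolar gene families, and the reference lists both copies as pseudogenes.

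Targets of MondoA and ChREBP changed in both directions: of 49 tested genes 4 rose and 3 fell, with a median of -0.41. At an unadjusted p under 0.05, 7 of the 49 were higher and 10 lower, beside 10.2% and 8.41% of all tested genes. TXNIP 113068243, which encodes a brake on glucose uptake and is a known MondoA target in mammals, was at 1591, 1011 and 2261 in controls and at 18906, 17434 and 17434 after hypoxia. It rose 11.1-fold between means (3.54 ± 0.35, limma adjusted p = 0.00143), and was called in each fit that left out 1 library, with adjusted p up to 0.0186. The other TXNIP copies, named after their values were seen, were not called by limma. Their differences were 1.52 ± 0.43 for TXNIP 113119223 and 1.31 ± 0.59 for Txnip 113115869. Every hypoxia library of TXNIP 113119223 was above its controls, and DESeq2 called that copy (adjusted p = 0.0191). The groups of Txnip 113115869 overlapped.

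G6PC 113111951, for glucose-6-phosphatase, which releases glucose from the liver, was at 686, 1026 and 589 in controls and at 2395, 3018 and 3242 after hypoxia (1.94 ± 0.28, limma adjusted p = 0.00986). Rgs16 113111115, a regulator of G protein signalling, was at 2.2, 10.4 and 2.0 in controls and at 52.0, 78.0 and 52.9 (3.67 ± 0.62, limma adjusted p = 0.0194). The fatty acid elongase elovl6 113113882 fell, from 1576, 1176 and 1165 in controls to 413, 210 and 406 after hypoxia (-1.97 ± 0.31, limma adjusted p = 0.0137). With 1 library left out, G6PC 113111951 was called in 2 of 6 fits, Rgs16 113111115 in 1 and elovl6 113113882 in 3, with adjusted p up to 0.0858, 0.126 and 0.101. Of the other called targets, G6PC 113056355 rose (2.08 ± 0.42, limma adjusted p = 0.0425). Gpd1 113062486 (-2.82 ± 0.54, limma adjusted p = 0.0347) and Gpd1 113119758 (-1.48 ± 0.28, limma adjusted p = 0.0307) fell. In that order these genes were called in 1, 1 and 2 of the 6 fits. The number called in the list was 8 without control replicate 2 and between 1 and 3 without any other library.

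**Figure D4:**
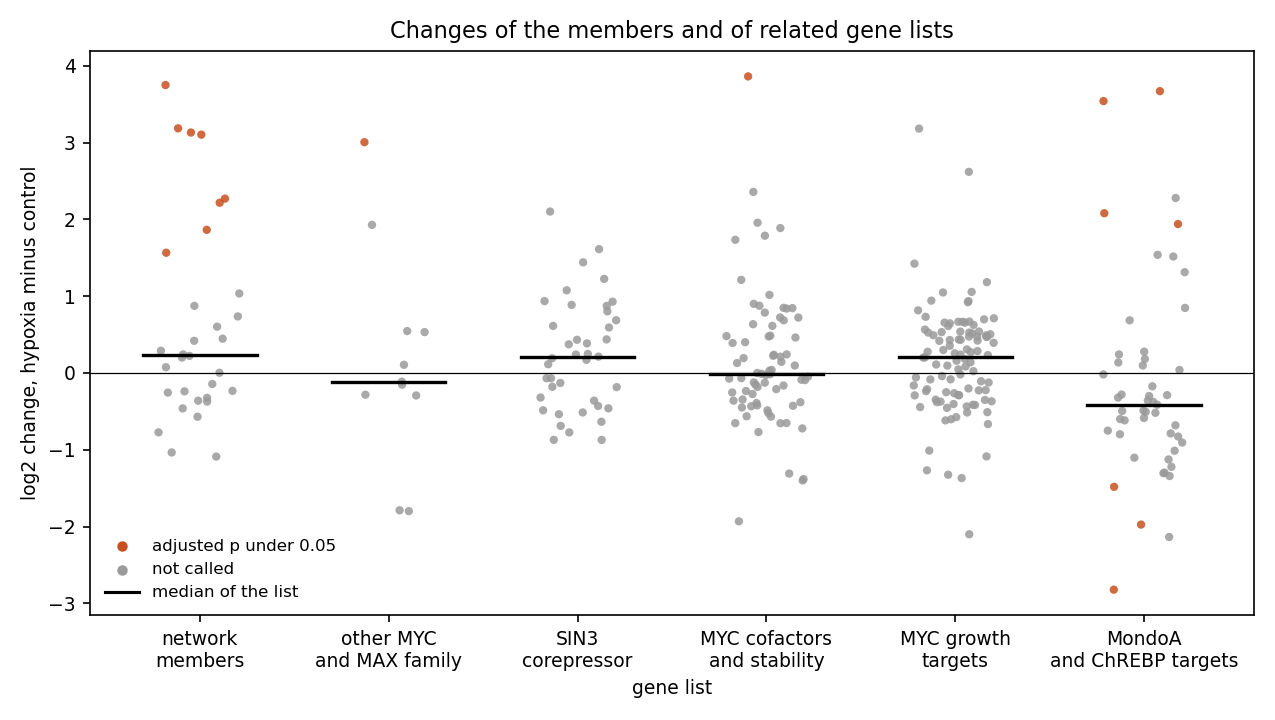
Difference between hypoxia and control on the scale log2(normalized count + 1) for every tested gene of the network and of the 5 related lists, with called genes coloured and the list median as a line. The network has 8 called copies, with differences from 1.57 to 3.75. The MYC growth targets (101 tested) and SIN3 corepressor genes (40 tested) have 0, where 2.24% of all tested genes were called.

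The profiles most like that of mnt 113115021 were sought among 26966 named genes with a mean of at least 10. The highest Pearson correlations of log2 levels over the 6 libraries belonged to the forkhead factor Foxk2 113112005 (0.997), the cell adhesion gene Nectin1 113061785 (0.997), NCOA7 113059420 (0.997), ddit4 113091945 (0.996), whose product restrains mTOR in mammals, and the lipoprotein lipase inhibitor Angptl4 113116506 (0.996). Foxk2 113112005 was not called (0.86 ± 0.23, limma adjusted p = 0.102), whereas the other genes named here rose, by 1.74 for Nectin1 113061785 to 6.95 for ddit4 113091945. The reference lists ddit4 113091945 as a pseudogene, and that copy was at 1.1, 0 and 0 in controls. The 6 points form 2 groups, and 390 genes were above 0.95. Among the network's copies mnt 113058485 was at 0.994 and mxi1 113039883 at 0.985. The 5 risen myc copies lay between 0.835 and 0.944, and mycb 113045699 was at -0.956.

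Markers of other cell types varied between the libraries, and the endocrine pancreas and endothelial sums were higher in every hypoxia library than in any control. The exocrine pancreas markers, 30 copies of which 24 were tested and 0 called, summed to 120894, 359 and 12588 in control replicates 1 to 3 and to between 50964 and 158103 after hypoxia. Endocrine pancreas markers, 11 copies of which 8 were tested and 0 called, summed to 29 to 485 in controls and 513 to 1648 after hypoxia. Endothelial markers, 15 copies, all tested, of which 2 rose, summed to 1041 to 1350 and 1591 to 2941, and macrophage markers, 8 tested copies with 0 called, to 628 to 2719 and 814 to 4521. Markers of proliferating cells, 16 tested copies with 0 called, summed to 400 to 1212 and 385 to 1378. Erythrocyte markers, 16 copies with 14 tested, summed to 1027 to 5934 and 1811 to 14553, lymphocyte markers, 9 tested copies, to 89 to 241 and 119 to 213, biliary markers, 16 tested copies, to 9424 to 12897 and 9624 to 17442, and stellate and fibroblast markers, 20 copies with 19 tested, to 3523 to 6076 and 2793 to 10630, each with 0 called. Hepatocyte markers, 16 copies of which 15 were tested and 2 fell, summed to between 1127236 and 2084338 in controls and between 1012578 and 2112851 after hypoxia. Of the marker copies 0 were at 0 in all 6 libraries. Control replicate 2, lowest in both pancreas lists, correlated at 0.836 and 0.853 with the other controls, which correlated at 0.929 with each other. With hypoxia replicates 1 to 3 control replicate 2 correlated at 0.864, 0.784 and 0.889. It was thus closer to hypoxia replicates 1 and 3 than to either other control. The part of these differences between libraries in the results was not tested.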

How the data were processed

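Liver mRNA was measured in 3 control and 3 hypoxia libraries. Bowtie2 2.2.8 and TopHat2 2.1.1 are named in the submitters' processing notes; genome build and counting tool: not given in the sources used here. The deposited values, called FPKM by the authors, proved to be a signal of reads scaled by one size factor for each library: with each library's step they gave whole read counts for 100% of values, within 0.01 of a read. Size factors ran from 0.846 to 1.31. The authors' deposited table also gives log2 fold changes and p-values.

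Values were tested as log2(value + 1) for 41045 genes with a mean of at least 1, with limma 3.58.1 in R 4.3.3, a mean-variance trend and Benjamini-Hochberg adjustment over all genes. Alternatives were DESeq2 1.42.0 and edgeR 4.0.16 run on those reads, other pseudocounts, filters and scalings, a replicate block and leaving out each library. Pairs of copies were fitted with a trend over their mean level, and neighbouring genes were looked at; both steps were added once the table was known. Scripts were tested on simulated data. The members and lists were chosen with earlier results of these data known. Each called copy and the 2 most abundant copies of each gene are given per library. From each list up to 4 called genes with the smallest p are named, or 2 where none is called. The remaining called MondoA and ChREBP targets are also named. Of 47544 gene identifiers 46576 matched the reference table, whose assembly was used for names and neighbours.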

Additional observations from a re-analysis of the deposited data

How the results depend on the processing

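The rises of mnt 113115021, mnt 113058485 and mxi1 113039883 were called in each fit that left out 1 library; the 5 myc calls were not. The count of risen copies was 8, and became 5 with the replicate block, 3 without a mean-variance trend and 3 to 9 with 1 library left out. Without the trend the 5 myc calls were all lost, at limma adjusted p from 0.067 to 0.14. DESeq2 called 1 fallen copy. Over all genes, 750 rose and 171 fell. DESeq2 gave 1671 and 1062, the replicate block 354 and 61, no trend 321 and 55, and leaving out 1 library 240 to 1314 and 13 to 871, the highest without control replicate 2; quantile normalization gave 274 fallen. Same-numbered libraries correlated at -0.106, -0.258 and -0.0516 in their deviations from the group means. With 3 libraries in each group, such values cannot settle whether the numbers pair the samples. The replicate block gave 6 unequal pairs in place of 10 and 4 called MondoA and ChREBP targets in place of 7, and, for members, it ended the calls of mycb 113118297, mycb 113105081 and mycb 113078257 (adjusted p 0.0629, 0.0743 and 0.144). Leaving out 1 library gave 1 to 18 unequal pairs, 1 to 8 MondoA and ChREBP targets, 0 to 1 other family genes, 0 to 2 SIN3 genes, 1 to 2 cofactors and 0 to 4 growth targets. DESeq2 called 13 MondoA and ChREBP targets, 4 SIN3 genes, 5 cofactors and 5 growth targets, and no trend 1 MondoA and ChREBP target and 0 other family genes. The cause of these shifts was not tested.

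Signs turned in copies that were not called. For max 113120887 edgeR gave -0.015 and quantile normalization -0.034, and leaving out 1 library -0.083 to 0.055. For Mlxipl 113073444 DESeq2 gave -0.015, edgeR -0.041 and quantile normalization -0.013, and leaving out 1 library -0.20 to 0.43. Leaving out 1 library also gave -0.0062 to 0.57 for MXD1 113075035, -0.37 to 0.026 for MXD1 113071793, -1.27 to 0.061 for mxd3 113113498, -0.79 to 0.18 for Mxd4 113108124, -0.070 to 0.68 for mnt 113038145, -1.04 to 0.39 for myc 113042350 and -0.039 to 0.63 for MLXIPL 113070117. Depth limits the copies with a mean under 10.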
